A study of Arabidopsis thaliana with 7 samples.

Results

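The transcripts of Arabidopsis thaliana leaves 6 h after a spray of salicylic acid (SA) were compared with those of leaves 3 h after the same spray. The comparison takes the array of the 6 h sample minus the array of the 3 h sample, which are 2 of the 7 arrays of the series, and asks which responses were still building over these hours and which were already declining. Both samples were mature leaves of Col-0 plants aged 3.5 weeks, grown in a 12 h photoperiod and sprayed with 0.5 mM SA in 0.02% Silwet, a wetting agent. The other 5 arrays, used here for context, were leaves of the same accession and age that were untreated (taken just before treatment), sprayed with 0.02% Silwet alone and taken at 6 h or 12 h, or sprayed with SA in Silwet and taken at 12 h or 24 h. Each sample pooled leaves cut from a few plants, different plants were used at each time, and the replicate samples that were collected were not run on arrays. The series is described as exploratory. Every condition therefore had 1 array, no difference below carries a p-value, and the spread between plants is unknown. There was no Silwet array at 3 h, so over the step from 3 h to 6 h the action of SA, the spray and the time of day cannot be told apart.

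SA is a plant hormone that turns on defences against pathogens that feed on living cells. It releases the coactivator NPR1 to act with TGA transcription factors, and the genes that answer fall into fast, often short-lived regulators and slower effectors such as chitinases and other secreted proteins. Leaves also carry a circadian clock, and many cold, sugar and growth genes follow a daily programme.

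Values are log2 RMA expression values, and a difference of 1 log2 unit is 2-fold. "Rose" and "fell" are used below for a gene at least 2-fold higher or lower at 6 h than at 3 h, which is a size and not a test. Levels of different genes are not compared, since each probe set has its own response. Of 13513 probe sets that name 1 gene, 280 (2.07%) rose and 422 (3.12%) fell. The remaining 12811, or 94.8%, lay within 2-fold. With 1 probe set for each of 13355 genes, 280 rose (2.1%) and 421 fell (3.15%). The median difference was -0.02, the SD over probe sets was 0.49, and Pearson's r between the arrays over these probe sets was 0.976. Past 4-fold there were 28 rises and 50 falls. Of the 21 possible pairs of arrays, this pair had the fewest probe sets past 2-fold, 702, and the pair of untreated and SA 6 h had the most, 2617.

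**Figure D1:**
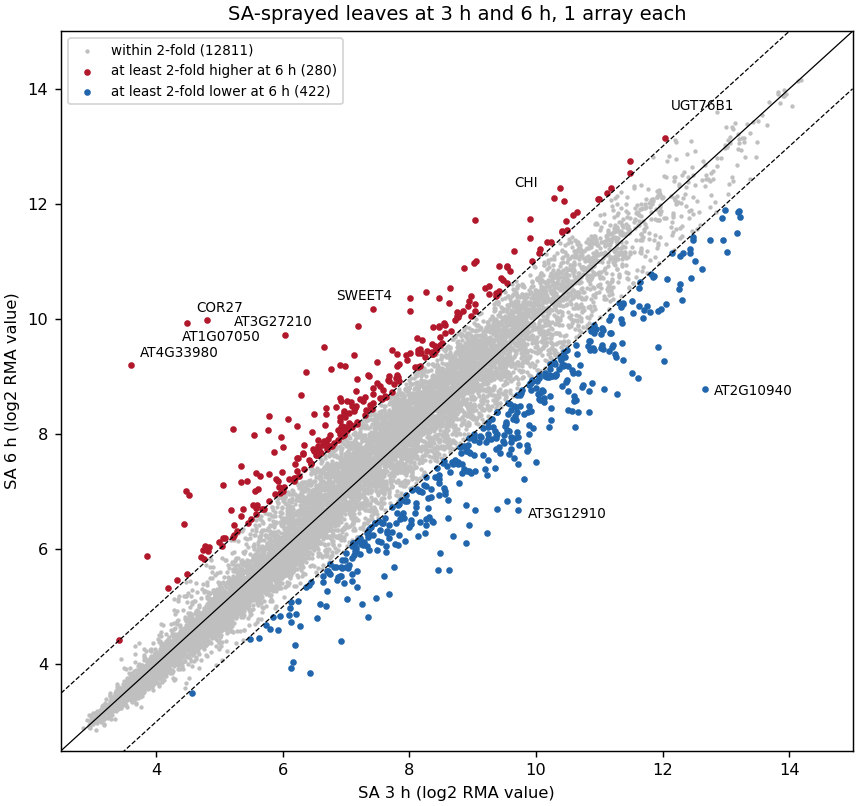
Log2 RMA value of each of 13513 probe sets in SA-sprayed leaves at 3 h (horizontal) and 6 h (vertical), 1 array each; the solid line marks equal values and the dashed lines a 2-fold difference. The 280 red probe sets rose and the 422 blue ones fell; AT4G33980, COR27 and AT1G07050 stand farthest above the line and AT2G10940 farthest below it.

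The noise of the pair can be seen only in part. None of the 64 control probe sets of the array maker differed by 2-fold, and their largest absolute difference was 0.637. In 147 genes read by more than 1 probe set, the probe sets differed in the 6 h minus 3 h difference by a median of 0.24, with a 95th percentile of 0.93. In 7 of these genes the gap was at least 1, and the largest was 1.91. In 5 of these genes a probe set passed 2-fold, in 0 did all of them, and in all 5 the probe sets had the same sign. In AT4G16980 and AT2G32560, however, 1 probe set fell by 1.97 and 1.21 while the other lay near 0, at -0.07 and -0.01. The 3′ excess of the GAPDH control, a measure of RNA integrity, was 0.57 at 3 h and 0.62 at 6 h, and that of the actin control was 1.72 and 2.48. Each rests on 1 pair of probe sets. From 3 h to 6 h the 3′ and 5′ actin probe sets differed by 0.25 and -0.51, but in a second actin pair by 0.39 and 0.19. For GAPDH these values were 0.33 and 0.28, and 0.50 and 0.32 in a second pair. The part of RNA integrity in the results was not tested. The leaf marker RCA, the activase of Rubisco, lay at 14.05 and 13.70, near its 14.22 in untreated leaves. The 4 measured root markers, LBD29, PYK10, EXPA7 and EXPA18, lay at 5.83 or below at 6 h, and no phloem, xylem, flower or dividing-cell marker of the lists was measured. STOMAGEN, the 1 measured entry of the guard cell and epidermis list, fell by 1.13 log2 units, but it is a mesophyll peptide and does not mark those cells. TRY, the 1 measured trichome marker, fell by 1.24. The part of cell types in the results was not tested. In whole leaves, fewer cells of a type and less RNA per cell cannot be told apart.

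The 3 largest rises were of genes that stood near their untreated level at 3 h and were high at 6 h in SA and in Silwet alike. AT4G33980 read 3.50 in untreated leaves, 3.60 in SA at 3 h and 9.21 in SA at 6 h, a 48.6-fold rise, then 8.20 at 12 h and 3.92 at 24 h. In Silwet it read 9.28 at 6 h and 8.88 at 12 h, so at 6 h the SA and Silwet levels differed little. COR27, a cold- and clock-regulated gene, read 5.27 in untreated leaves, then 4.49, 9.93, 9.90 and 5.52 in SA at 3, 6, 12 and 24 h, a 43.5-fold rise from 3 h to 6 h. Its Silwet levels were 10.17 at 6 h and 11.69 at 12 h. AT1G07050 went from 4.81 at 3 h to 9.99 at 6 h in SA, against 4.96 untreated and 11.23 in Silwet at 6 h. AT4G33980, AT1G07050 and other loci printed as numbers carry no further name in the tables used here, so no role is given for them. GIGANTEA (GI), an evening gene of the clock and the only clock gene of the list that was measured, read 8.71 in untreated leaves and 8.76 at 3 h, then 10.12 at 6 h, 5.36 at 12 h and 9.19 at 24 h in SA. In Silwet GI read 11.01 at 6 h and 4.83 at 12 h, so both arms were high at 6 h and low at 12 h.

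Of the 15 largest rises, those of SWEET4, LTI30, AT5G55420, AT4G28140, AT1G53100 and AT3G27210 stood at least 2-fold above Silwet at 6 h. SWEET4, a sugar transporter, read 6.44 untreated. Its SA levels at 3, 6, 12 and 24 h were 7.42, 10.18, 8.73 and 7.82, and its Silwet levels 7.37 at 6 h and 7.29 at 12 h. Only the 6 h and 12 h SA levels exceeded every control level by 2-fold, and the rise from 3 h to 6 h was 6.76-fold. LTI30, a dehydrin of cold and drought, read 9.04 at 3 h and 11.71 at 6 h in SA against 6.08 untreated and 9.71 in Silwet at 6 h, and by 24 h it was at 6.52. AT3G27210 rose from 6.03 to 9.72 and stayed at 9.43 at 12 h. It read 5.73 untreated and 8.65 and 8.06 in Silwet at 6 h and 12 h, so it was high in Silwet as well. AT5G55420 rose from 8.01 to 10.36 with 5.42 untreated and 6.36 in Silwet at 6 h. AT4G28140 rose from 5.54 to 7.99, with 6.12 in untreated leaves and 5.63 and 5.53 in Silwet leaves. AT5G62360 and AT2G39920 rose to 8.32 and 9.13 in SA at 6 h, but in Silwet at 6 h they read 11.98 and 11.02.

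Many of the 15 largest falls were of genes that stood above their untreated level at 3 h. AT3G12910 read 5.82 in untreated leaves, 9.72 in SA at 3 h, 6.67 at 6 h, 5.70 at 12 h and 5.04 at 24 h, while Silwet leaves were at 4.61 and 4.24. Its fall from 3 h to 6 h was 8.28-fold. AT1G26380 read 5.89 untreated, 11.62 at 3 h, 8.98 at 6 h, 9.20 at 12 h and 6.80 at 24 h, with Silwet at 5.40 and 5.47. It had thus fallen 6.23-fold by 6 h and was still far above Silwet. AT1G66090 fell from 12.02 to 9.28, AT5G05300 from 11.27 to 8.70 and AT5G46080 from 9.72 to 6.86. DLAH, a DAD1-like acylhydrolase, fell from 9.55 to 6.83 and then read 5.47 and 5.61 at 12 h and 24 h, with 7.47 in untreated leaves and 4.85 in Silwet at 6 h.

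AT2G10940 had the largest fall and another course. It read 13.89 in untreated leaves and 13.32 and 12.66 in Silwet leaves. In SA it read 12.66 at 3 h, 8.78 at 6 h, 8.36 at 12 h and 12.79 at 24 h, so that a 14.8-fold fall came between 3 h and 6 h, and the 24 h level was again near that at 3 h. AT1G62510 read 9.38 at 3 h, 6.70 at 6 h, 5.72 at 12 h and 8.95 at 24 h in SA against 9.78 untreated. In Silwet it read 9.60 at 6 h and 7.63 at 12 h, so it was lower at 12 h there as well.

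**Figure D2:**
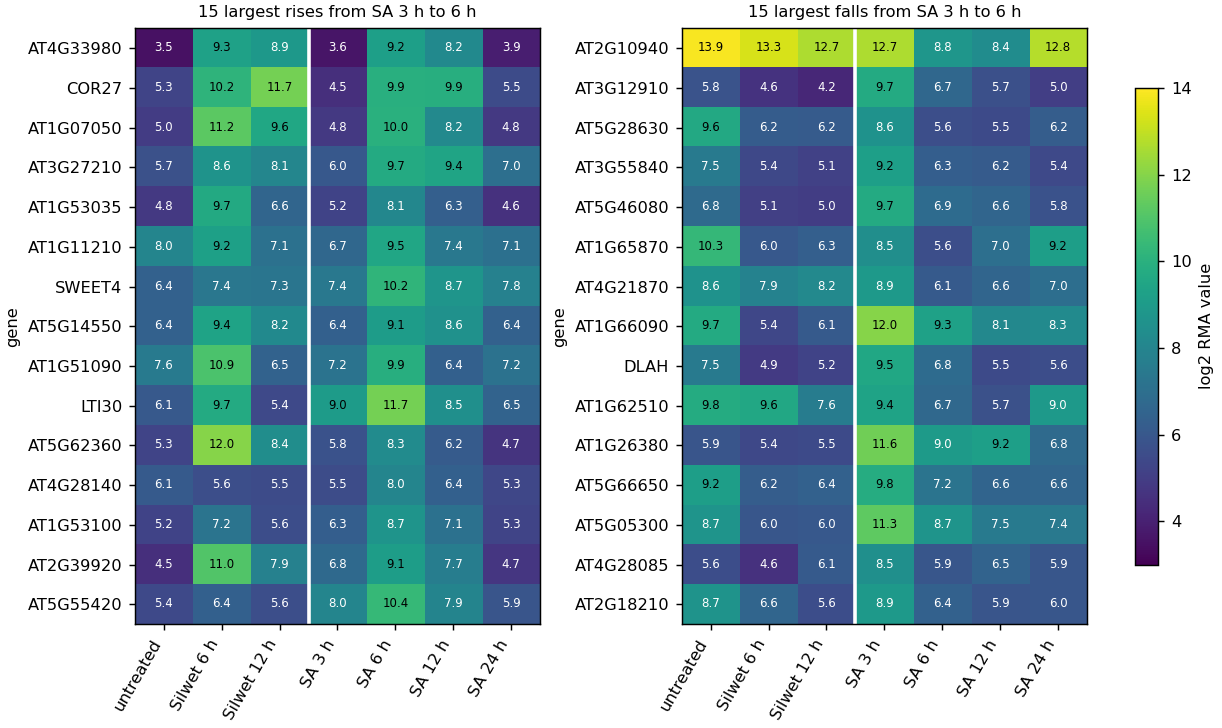
Log2 RMA values of the 15 largest rises (left) and the 15 largest falls (right) from 3 h to 6 h among probe sets above the median level, in each of the 7 arrays (columns; the white line parts the 3 control arrays from the 4 SA arrays). Most of the rising genes are also high in Silwet at 6 h, and most of the falling ones are low in both Silwet arrays; AT2G10940 is high in the controls and low in SA at 6 h and 12 h.

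Lists of probe sets set by other arrays place these changes within the time course. SA at 12 h against Silwet at 12 h, which uses neither array of the pair, had 808 probe sets at least 2-fold higher (5.98%) and 812 lower (6.01%). Of the 808 higher, 83 (10.3%) rose from 3 h to 6 h and 93 (11.5%) fell, with a median difference of 0.21. They made up 29.6% of all rises and 22.0% of all falls. Of the 812 lower, 22 (2.71%) rose and 98 (12.1%) fell, with a median of -0.38, and they made up 7.86% of the rises and 23.2% of the falls. So the genes above Silwet at 12 h had moved both ways in these hours, and those below Silwet mostly down.

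SA at 24 h against untreated leaves gave 474 higher probe sets (3.51%) and 497 lower (3.68%). Of the 474 higher, 64 (13.5%) had risen from 3 h to 6 h and 26 (5.49%) had fallen. Of the 497 lower, 19 (3.82%) had risen and 136 (27.4%) had fallen, which is 32.2% of all falls.

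Many of the same probe sets also differed between control arrays. Silwet at 6 h against untreated leaves had 507 higher probe sets (3.75%) and 635 lower (4.7%). Of the 507 higher, 112 (22.1%) rose from SA 3 h to 6 h and 14 (2.76%) fell, and they held 40% of all rises. Of the 635 lower, 193 (30.4%) fell and 11 (1.73%) rose, and they held 45.7% of all falls. The untreated sample and the 3 h sample were both taken earlier than the 6 h samples, and the parts of spray and time of day in these shares were not tested. Silwet at 12 h against Silwet at 6 h gave 524 higher (3.88%) and 401 lower (2.97%). Of the 524, 25 rose and 44 fell in the SA pair, and of the 401, 44 rose and 45 fell, so the later change of the Silwet arm did not take one side.

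Later in the SA arm many of these changes ran backwards. SA at 24 h against SA at 12 h gave 613 higher probe sets (4.54%) and 581 lower (4.3%). Of the 581 lower at 24 h, 120 (20.7%) had risen from 3 h to 6 h and 30 had fallen, and these 120 were 42.9% of all rises. Of the 613 higher at 24 h, 139 (22.7%) had fallen and 10 had risen, and these 139 were 32.9% of all falls. The median level of the 280 risen probe sets was 6.82 in untreated leaves, then 7.06, 8.50, 8.21 and 7.43 in SA at 3, 6, 12 and 24 h, with 7.87 and 7.78 in Silwet. That of the 422 fallen ones was 8.98 untreated, then 9.27, 7.78, 7.70 and 8.23 in SA, with 7.56 and 7.63 in Silwet. At 6 h the fallen genes as a set thus stood near their Silwet level and the risen ones above it; the 3 h and 6 h levels are those by which the sets were chosen.

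**Figure D3:**
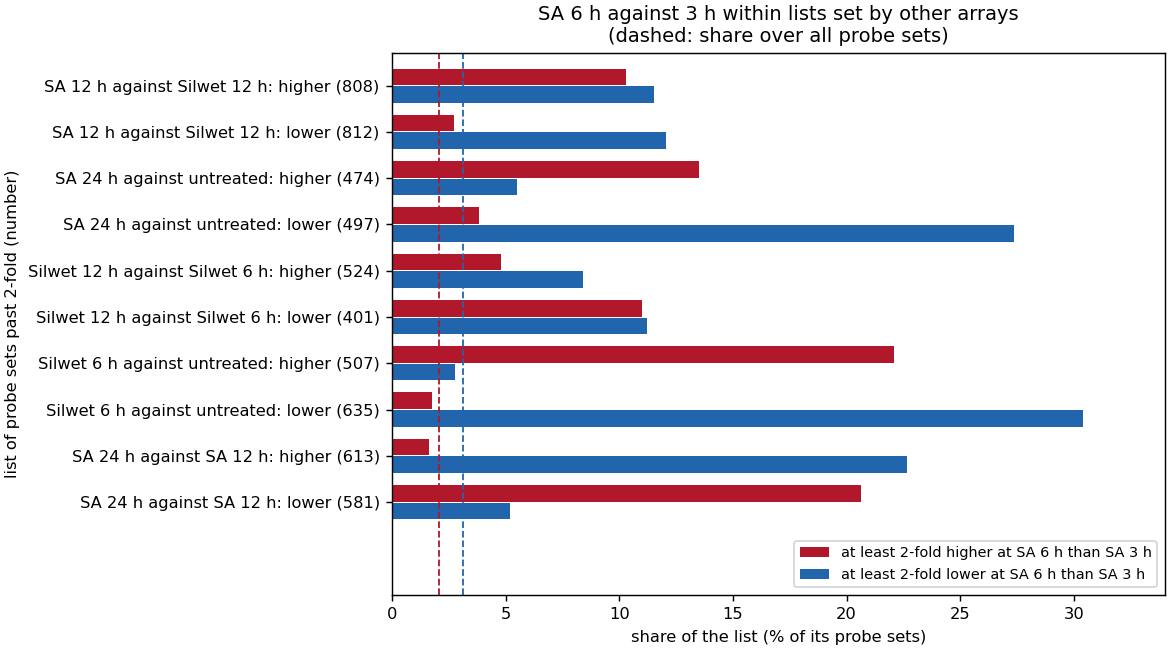
Share of each list, in % of its probe sets, that was at least 2-fold higher (red bars) or lower (blue bars) in SA at 6 h than in SA at 3 h, for lists set by comparisons that use neither array; the dashed lines are the shares over all probe sets, 2.07% and 3.12%. Genes higher in Silwet at 6 h than in untreated leaves show the largest share of rises, 22.1%, and genes lower there the largest share of falls, 30.4%.

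Read both ways, the 280 rises split by whether SA was above Silwet at 12 h and whether Silwet had moved at 6 h. There were 62 that were higher in SA at 12 h with Silwet at 6 h within 2-fold of untreated leaves, and 20 that were higher in both. Another 75 were higher in Silwet at 6 h and within 2-fold between SA and Silwet at 12 h, and 92 were within 2-fold in both comparisons. Of the 422 falls, 58 were higher in SA at 12 h and lower in Silwet at 6 h than in untreated leaves, and 116 were lower in Silwet at 6 h with SA and Silwet at 12 h within 2-fold. A further 71 were lower in SA at 12 h with Silwet at 6 h within 2-fold, and 111 were within 2-fold in both comparisons. The same split was not made over all probe sets, so these counts have no background share beside them.

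Examples among the 62 above Silwet at 12 h with Silwet at 6 h within 2-fold were CHI, AT3G13610 and UGT76E12. CHI, a chitinase, read 7.19, 7.25 and 7.37 in the untreated and both Silwet arrays, and 10.29, 12.10, 11.95 and 10.76 in SA at 3, 6, 12 and 24 h. All 4 SA levels lay above all 3 control levels, and the rise from 3 h to 6 h was 3.51-fold. AT3G13610, which RefSeq lists as F6'H1, the feruloyl-CoA hydroxylase of coumarin synthesis, read 6.13 untreated and 5.76 in both Silwet arrays, then 9.05, 11.01, 10.86 and 8.59 in SA. It was named after its values were seen. UGT76E12, a glycosyltransferase, read 4.60, 4.56 and 4.64 in the controls and 5.59, 7.32, 6.40 and 5.59 in SA. All 3 genes were already above every control level at 3 h and were highest at 6 h.

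Of the SA-responsive genes reported in any case, all 5 lay within 2-fold between 3 h and 6 h. UGT76B1, which glucosylates SA and isoleucic acid, read 5.68 untreated and 4.80 in Silwet at 6 h, 13.10 in SA at 3 h and 13.34 at 6 h, a difference of 0.25, then 12.57 and 11.33. AT3G28510 read 3.95 untreated, 10.53 at 3 h, 11.40 at 6 h, 11.49 at 12 h and 10.43 at 24 h. GRX480, a CC-type glutaredoxin that binds TGA factors, read 7.03 untreated and 12.14, 11.60, 10.07 and 9.55 in SA. GH3.3, an auxin amido synthetase, read 5.52 untreated and 11.80, 11.02, 8.91 and 8.22 in SA. AT3G28510 was higher at 6 h by 0.87, short of 2-fold, and had its highest level at 12 h, while GRX480 and GH3.3 had their highest level at 3 h. The 5 measured genes of SA conjugation and turnover spanned -0.24 to 0.30, with 0 past 2-fold; among them WES1, also known as GH3.5, read 8.32 and 8.62, and UGT74F1 and the methyltransferase gene BSMT1 differed by -0.24 and -0.01. PR1, WRKY70 and ICS1 are not analysed here.

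**Figure D4:**
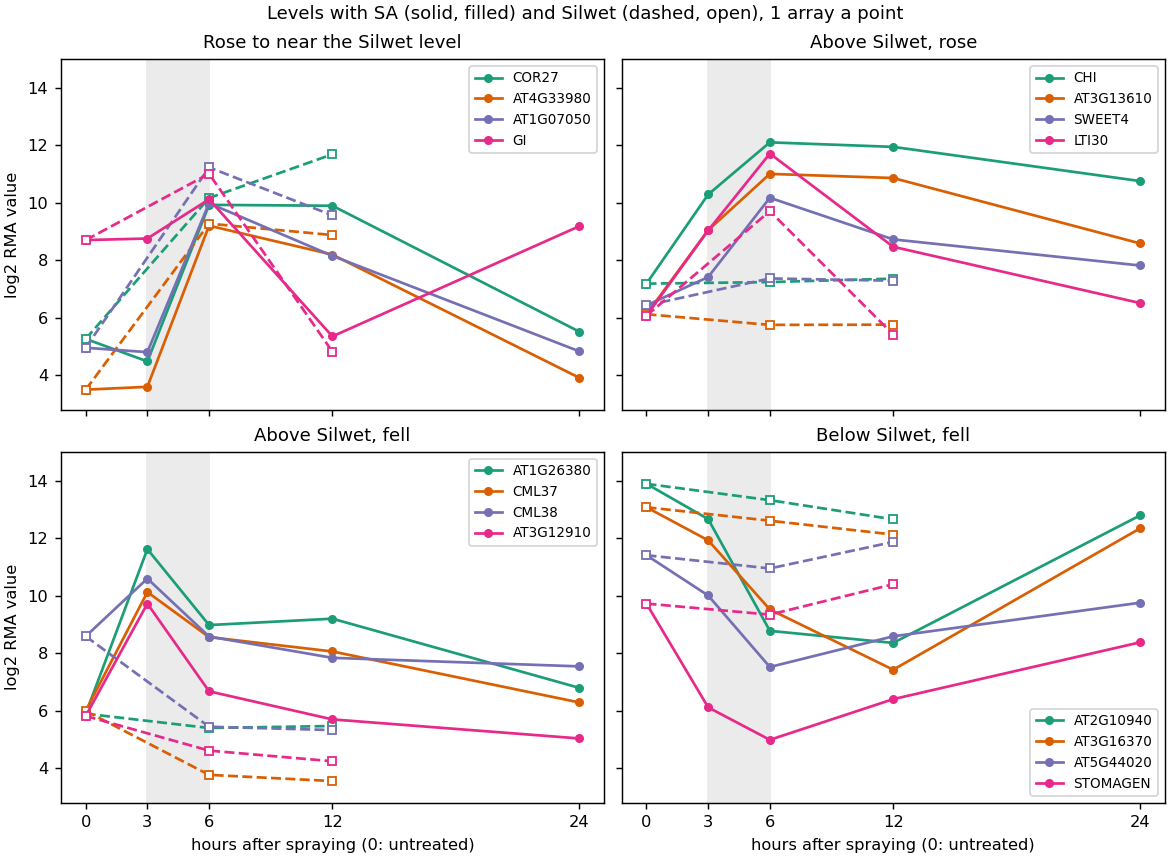
Log2 RMA values against hours after spraying for 4 genes in each of 4 courses, with SA (solid lines, filled points) and Silwet (dashed lines, open squares), both starting from the untreated array at 0 h; each point is 1 array and the grey band marks 3 h to 6 h. COR27 and AT4G33980 reach their Silwet level at 6 h, CHI and AT3G13610 are far above it, AT1G26380 and CML37 fall while staying above it, and AT2G10940 and AT3G16370 drop below it.

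The genes of touch, wounding and rapid stress moved down as a list. All 7 measured members were lower at 6 h, 5 of them by at least 2-fold, with a median of -1.52. Over all genes 3.15% fell and the median was -0.02. WRKY6, described below with the WRKY factors, is also in this list. CML37, CML38 and CML42 encode calmodulin-like calcium sensors. CML37 read 5.99 untreated, 3.77 and 3.55 in Silwet, and 10.13, 8.56, 8.06 and 6.29 in SA. CML38 read 8.59 untreated, 5.44 and 5.33 in Silwet, and 10.60, 8.58, 7.84 and 7.54 in SA. CML42 read 8.78 untreated, 7.84 and 8.39 in Silwet, and 10.83, 8.75, 8.04 and 7.87 in SA. All 3 were highest at 3 h, and by 6 h CML38 and CML42 were back at about the untreated level, while CML37 was still above it. STZ, a zinc finger repressor of stress responses, read 12.74 at 3 h and 11.38 at 6 h, against 11.92 untreated and 7.37 in Silwet at 6 h. Across the wider list of calcium sensors, 3 of 7 fell and 0 rose, with a median of -0.63; the 3 are the same CML genes, and CML41 and CML43 differed by 0.54 and 0.75.

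Some transcription factors and ubiquitin ligases rose or fell, where 2.1% of all genes rose and 3.15% fell. Of 6 measured WRKY factors, WRKY6 fell from 10.59 to 9.07 and WRKY22 from 7.49 to 5.99. WRKY53, a senescence and defence factor, read 11.85 untreated, 12.27 at 3 h, 11.42 at 6 h, 10.05 at 12 h and 9.60 at 24 h, against 5.42 in Silwet at 6 h. WRKY42, below the median level in both arrays, rose from 5.37 to 6.69, and the median of the 6 was -0.44. Of 27 measured U-box, ATL and conjugase genes of ubiquitination, PUB23 fell from 9.37 to 7.73 and PUB24 from 11.05 to 9.81, while PUB22 differed by -0.92. PUB22, PUB23 and PUB24 are related U-box ligases that damp pattern-triggered immunity. PUB19, a U-box ligase of drought responses, rose from 7.17 to 8.96, with 9.88 untreated. In the ubiquitination list 1 gene rose and 2 fell, with a median of 0.01, so most of its genes lay within 2-fold. Fes1A, a cofactor of Hsp70, read 7.54 untreated, 12.43 at 3 h, 11.15 at 6 h and 8.48 at 12 h, the only one of 10 heat shock genes past 2-fold.

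Of 9 measured cold and drought genes, 5 rose and 0 fell, with a median of 1.22, where 2.1% of all genes rose and 3.15% fell. Besides COR27 and LTI30, COR15B, a protectant of chloroplast membranes, rose from 10.44 to 12.04 and COR47, a dehydrin, from 10.65 to 11.87. LEA4-5, a late embryogenesis protein below the median level in both arrays, rose from 5.34 to 6.57. COR15A differed by 0.97 and LEA by -0.18. In Silwet at 6 h COR15B and COR47 stood at 13.52 and 12.73, above their SA level at 6 h, and at 24 h in SA they were at 8.80 and 10.22, below untreated leaves at 10.36 and 11.21. GID1A and GID1C, receptors of gibberellin, rose from 7.35 to 9.04 and from 7.08 to 8.56, with 9.68 and 8.19 in Silwet at 6 h. The third receptor, GID1B, took another course, with 7.12 untreated, 6.52 in Silwet at 6 h, and 8.80 and 9.43 in SA at 3 h and 6 h.

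Autophagy and endoplasmic reticulum genes moved by smaller amounts. ATG8 proteins coat the membrane of the autophagosome. Of 10 measured autophagy genes ATG8B rose from 8.76 to 10.05 and ATG8D from 8.09 to 9.17, with 0 fallen and a median of 0.49. Over all genes 2.1% rose and 3.15% fell. ATG8B read 6.97 untreated and 7.07 in Silwet at 6 h. From 6 h to 12 h it differed by 0.22 in SA and by 0.93 in Silwet. ATG8D read 9.03 in Silwet at 6 h, near its SA level there, and its difference was 0.91 with lowess and 0.97 with renewed quantile normalisation, both short of 2-fold. In the endoplasmic reticulum, the calreticulin gene CRT1b rose from 11.49 to 12.75, with 9.71 untreated and 10.65 in Silwet at 6 h. It was 1 of 10 measured folding genes, whose median was 0.33. ATERDJ3B, a J-protein of the lumen, read 9.32 untreated, 12.22 at 3 h and 13.08 at 6 h, a difference of 0.86. BZIP60, the transcription factor of the unfolded protein response, went the other way, from 11.94 to 10.98, a difference of -0.96.

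Of 38 measured genes in a list of chitinases, defensins, BGLU beta-glucosidases and others, 5 rose and 2 fell, with a median of 0.02. Over all genes 2.1% rose and 3.15% fell. The 2 that fell, BGLU27 and CHIL, are not chitinases, glucanases or defensins, and neither is BGLU44, 1 of the 5 that rose. Only 13 of the 38 were at or above the median level in either array. The jasmonate and ethylene defensins PDF1.2 and PDF1.2b rose from 6.66 to 7.88 and from 8.27 to 9.44, but in Silwet at 6 h they read 9.09 and 11.12, and in SA at 12 h they were at 5.09 and 6.75. With lowess PDF1.2b lay just short of 2-fold. The osmotin gene OSM34 differed by 0.08. Of 47 measured UDP-glycosyltransferases 3 rose and 3 fell, with a median of 0.06, and of 23 cytochromes P450 none passed 2-fold, with a median of -0.10. Of 14 glutathione transferases only GSTU18 passed, falling from 9.49 to 7.99 with 11.19 untreated.

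Over all 13513 probe sets 7069 were lower at 6 h and 44.8% were higher, beside which the counts of genes lower at 6 h below are given. All 11 measured nuclear genes of the photosystems and carbon fixation were lower at 6 h, with a median of -0.41, but only LIL3:1, a light-harvesting-like protein of chlorophyll synthesis, passed 2-fold, falling from 10.29 to 9.23. PRK, the phosphoribulokinase of the Calvin cycle, read 13.51 untreated, 13.04 at 3 h, 12.17 at 6 h and 13.39 at 12 h, lowest at 6 h among all 7 arrays. In chlorophyll and carotenoid synthesis 2 of 11 fell, where 3.15% of all genes did. They were CHLM, a methyltransferase of the magnesium branch, from 11.15 to 9.98, and HEMA2, a glutamyl-tRNA reductase, from 9.17 to 8.10. CHLM was back at 11.14 at 12 h, and its Silwet levels were 12.16 and 12.25. Of 69 measured genes of the chloroplast genome, 62 were lower at 6 h, with a median of -0.25, and rps16 alone passed 2-fold, from 7.80 to 6.64.

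Growth and cytoskeleton genes also fell in part. Of 9 tubulin and actin genes 7 were lower and 2 higher, with a median of -0.64. ACT11 and TUB1 fell by 1.39 and 1.15 log2 units, but both lay below the median level in both arrays. TUB9, a brighter gene, was higher by 0.71. TUB6 read 10.49 untreated, 9.91, 9.19, 8.40 and 9.44 in SA, and 10.50 and 10.37 in Silwet. Of 38 wall genes 5 fell and 2 rose, with a median of -0.21, where 3.15% of all genes fell and 2.1% rose. Expansins loosen the wall, and EXPB1 fell from 8.14 to 6.24 and EXPA8 from 8.29 to 6.89, while EXPA16 rose from 6.22 to 8.13. STOMAGEN, a mesophyll peptide that promotes stomata, read 9.72 untreated, 9.34 and 10.40 in Silwet, and 6.12, 4.99, 6.40 and 8.38 in SA. Most of its drop was thus present at 3 h, and 6 h was the low point. AT3G16370 and AT5G44020, also below Silwet at 12 h, fell from 11.92 to 9.52 and from 10.01 to 7.52. The trichome repressor TRY fell from 7.09 to 5.85, with 8.89 untreated and 5.95 in Silwet at 6 h.

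**Figure D5:**
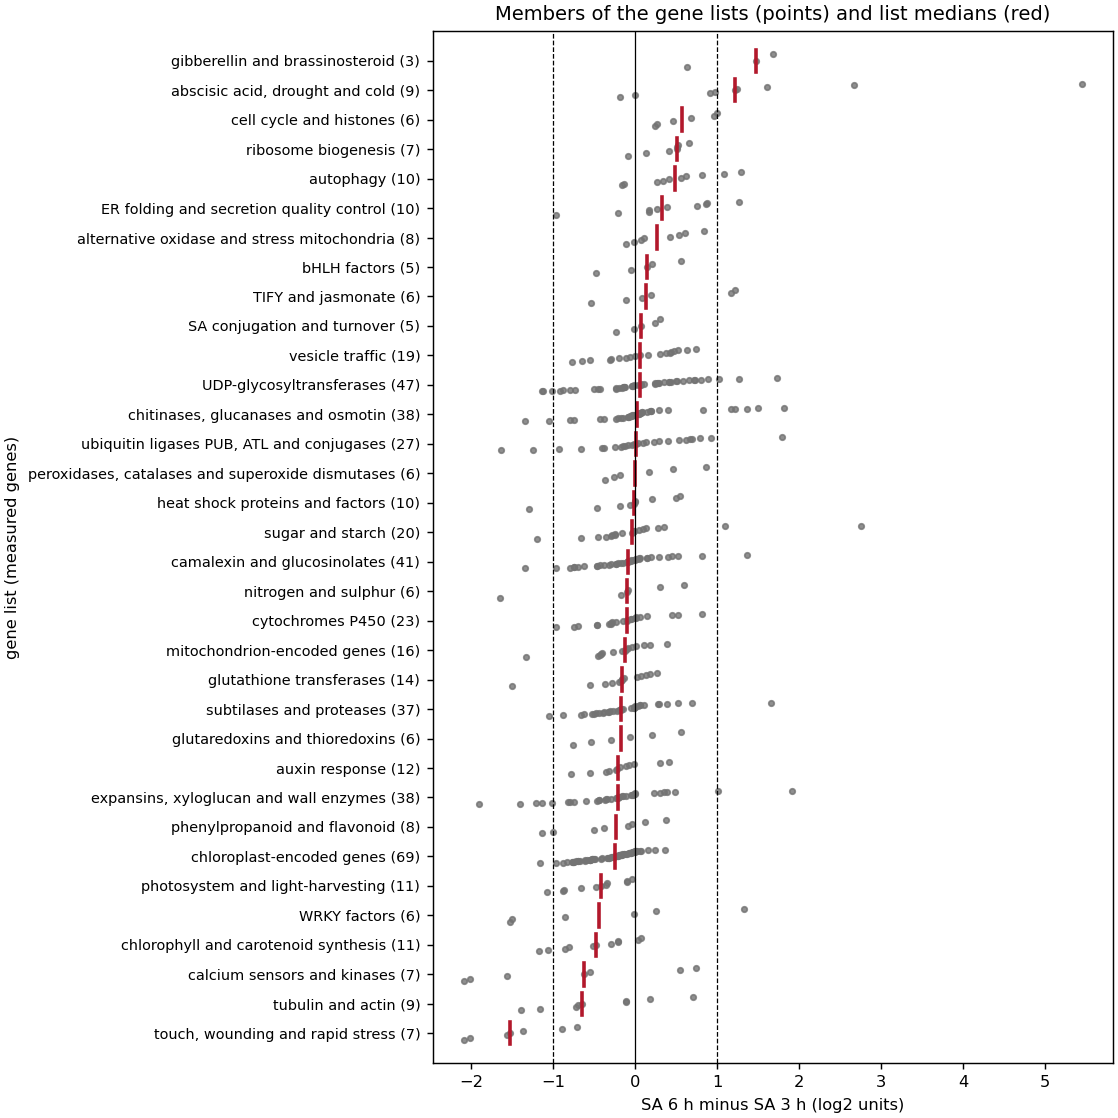
Difference between SA at 6 h and SA at 3 h, in log2 units, for each measured gene (points) of the 34 lists with at least 3 measured genes, ordered by list median (red bars); dashed lines mark 2-fold. The touch and rapid stress list lies wholly below 0, with a median of -1.52, the cold and drought list has a median of 1.22, and most lists have medians near 0.

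In the next lists no gene passed 2-fold. All 6 measured cell cycle and histone genes were higher at 6 h, with a median of 0.57, led by SIM, an inhibitor of cyclin-dependent kinases, and the histone HTB11, at 0.99 and 0.96. The 7 genes of RNA polymerases and ribosome biogenesis had a median of 0.51, led by NRPC2 at 0.65. Of 12 auxin response genes 10 were lower, with a median of -0.20, but only 3 of the 12 were at or above the median level in either array. Just inside the 2-fold threshold lay AT5G63010 at 1.002 and AT4G25030 at -1.001, and just outside it AT1G64890 at 1.000 and CCR2, a cinnamoyl-CoA reductase, at -0.997, so these counts turn on small differences for such genes.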

How the data were processed

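RNA of 7 leaf samples was hybridised to Affymetrix ATH1 arrays, on which a group of probes (a probe set) reads each transcript. The deposited values are on the log2 scale. Per the submitters' processing notes they come from RMA as run in affy, with the version not given in the sources used here. RMA normalises all arrays to nearly equal distributions, so a shift of most transcripts would be hidden, and it shrinks the differences of dim probe sets. The table held 22810 probe sets: 13513 named 1 gene in the platform annotation, 503 several, 8730 none, and 64 were controls. Symbols were updated from RefSeq (TAIR10.1) for 13436. Differences were computed with pandas 2.3.3 in Python 3.11.15. A run on simulated arrays checked the subtraction and the threshold only. Its planted changes were well past 2-fold and its noise was small, so it does not measure the error of the counts.

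With 1 array a condition there was no test. Genes were named by a rule: the 15 largest rises and falls at or above the median level in either array, the 5 largest each way among genes past 2-fold in SA against Silwet at 12 h, the 3 largest in each gene list, and a set of SA and clock genes. Others named were chosen after their values were seen. The comparison and the 58 gene lists were chosen with earlier results of these data known, and entries were added or removed after matching where a symbol stood for another gene. Of the lists, 34 had at least 3 measured genes, 12 had fewer and 12 had none. Where a gene had several probe sets, the brightest was used. Alternatives were other probe sets, thresholds, a filter on dim probe sets, centring, lowess and a second quantile normalisation. No sequences were used.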

Additional observations from a re-analysis of the deposited data

How the results depend on the processing

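Without replicate arrays, neither the spread between plants nor the effect of leaving out an array could be measured, and the precision of each difference is unknown. No paired analysis was possible because each condition had 1 array. With all probe sets but controls, named or not, 626 were at least 2-fold higher at 6 h and 810 lower. A 3-fold threshold left 59 and 123, and a 1.5-fold threshold gave 1174 and 1047. The size of these counts follows from the number of probe sets and the threshold. Under 1 probe set a gene, the dim filter, centring, lowess and renewed quantile normalisation, rises ran from 223 to 295 and falls from 373 to 516, all within 1.5 times the counts above. The share of rises among calls was 39.9%, and 30.2% with lowess, which moved the median by -0.01. At 3-fold this share was 32.4%, but at 1.5-fold it was 52.9%, so whether falls outnumbered rises depended on the threshold. Of 378 differences of named genes under 3 scalings, 365 kept their side of 2-fold, 8 passed it, 5 dropped below it and 0 changed sign with a call; the 5 were in PDF1.2b, ATG8D and SWEET1. Among 170 list medians 168 kept their side, and with the dim filter the jasmonate list stood at 1.17 and calcium sensors stood at -1.10.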

Other observations

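Other named genes past 2-fold lie outside the rule for named genes, and were chosen after their values were seen. BIK1, a receptor-associated kinase of pattern-triggered immunity, read 9.55 in untreated leaves, 10.69 in SA at 3 h, 9.20 at 6 h and 8.01 at 24 h, against 7.32 in Silwet at 6 h. SGT1A, a co-chaperone of immune receptors, read 10.19 untreated, 12.47 at 3 h and 11.37 at 6 h, against 9.52 in Silwet at 6 h. Both were highest at 3 h. CaS, the calcium-sensing protein of the thylakoid, read 12.83 untreated, 11.21 at 3 h, 9.52 at 6 h, 10.76 at 12 h and 12.39 at 24 h, with 11.65 and 12.22 in Silwet. DRT100 read 11.03 untreated, 7.13 at 3 h and 5.90 at 6 h, then 7.58 and 9.57. Both were lowest at 6 h among the 7 arrays.

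On the rising side, PDC2, a pyruvate decarboxylase of fermentation, read 8.82 untreated, 9.90 in SA at 3 h, 11.74 at 6 h and 9.39 at 12 h, and in Silwet 11.98 at 6 h and 9.13 at 12 h, so both arms were high at 6 h. DPL1, a sphingoid phosphate lyase, read 7.55 untreated, 7.83, 9.23, 10.04 and 9.50 in SA, and 7.49 and 8.53 in Silwet, still higher at 12 h than at 6 h. ALDH7B4, an aldehyde dehydrogenase of stress, read 9.85 untreated, 11.00, 12.08, 11.48 and 11.88 in SA, and 10.20 and 10.50 in Silwet, with all 4 SA levels above the 3 controls. FDH, the formate dehydrogenase of mitochondria, read 11.97 untreated, 11.12 at 3 h and 12.18 at 6 h, so its 6 h level was near the untreated one and the 3 h level was the low one.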
